A study of Brassica napus with 12 samples.

Results

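In the seed transcriptomes of 4 inbred lines of rapeseed (Brassica napus), 197 genes were listed for the lines YH25005 and SW alone and reached a mean of at least 15 CPM (counts per 1000000 counts of the library) in YH25005 or in SW. They were chosen from 3131 IDs that the YH25005 and SW files hold and the A28 and R8Q10 files do not, out of 50338 IDs in all. The other lines were A28 and R8Q10, and each line was sampled as immature seeds of selfed, field-grown plants 24 days after pollination, with 3 libraries per line. No agent or transgene is named in the labels, and by its design text the study set high against low linolenic acid lines, linolenic acid being a polyunsaturated component of seed oil. Which line has which trait is not stated in the labels, and the extraction notes speak of embryos where the tissue label says seeds.

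The deposited lists had been filtered, each gene lying above 1 CPM in 3 or more libraries of its pair of lines. The lowest third-highest value was 1.01 CPM in each list. By that filter each of the 197 genes was at or under 1 CPM in 4 or more of the 6 A28 and R8Q10 libraries, and in up to 2 it may have been higher. Absence from a list is therefore not a measured 0. The same rule applied to A28 and R8Q10 gave 115 genes, from 3499 IDs listed only there.

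Rapeseed carries an A and a C subgenome, inherited from turnip-like and cabbage-like ancestors, so most genes have a near-identical partner on the other subgenome. Lines of the species are known to differ in which copies they carry, through loss of single genes and through exchange between partner chromosomes that replaces one copy with the other. At this stage the embryo builds up storage protein and oil. Counts of near-identical copies can be split or shared by read assignment, so the level of a single copy is uncertain to that extent. In whole seeds, fewer cells of a type and less RNA per cell cannot be told apart.

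Only 15 of the 197 IDs were found in the RefSeq gene table of the Da-Ae assembly, all as protein-coding genes, and 0 of them had a name there. Of 13 placed on a chromosome by both sources, 11 lay on the chromosome named in the ID. The genes are therefore described by ID, level and neighbourhood, and storage protein, oil body, desaturase, resistance and other gene lists by name, seed and seed coat markers included, had 0 members that could be matched. The tissue label could for that reason not be checked against markers.

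Library totals ran from 30150457 to 40762254 counts, and in YH25005 and SW a count of 0 allows up to 0.0772 to 0.0921 CPM (3 counts, counting error only). Within YH25005 the replicates correlated across genes at 0.955 to 0.969 in log2(CPM + 1). SW replicates 1 and 2 correlated at 0.965, and SW replicate 3 stood apart, at 0.916 and 0.921 with them. The labels do not say whether replicates came from separate plants, and p-values then cover only the spread of these samples, which may be technical.

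Few of the 197 genes reached the threshold in both lines, and many were still detected in the line below it. A mean of 15 CPM was reached in YH25005 alone by 122 genes, in SW alone by 66, and in both lines by 9. That is 4.57% in both lines, against 62.0% of the 16549 genes of both lists that reach 15 CPM in either line. For 49 of the 122 no SW library exceeded 1 CPM, and for 42 of the 66 no YH25005 library did. All 6 libraries exceeded 1 CPM for 40 of the 197.

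**Figure D1:**
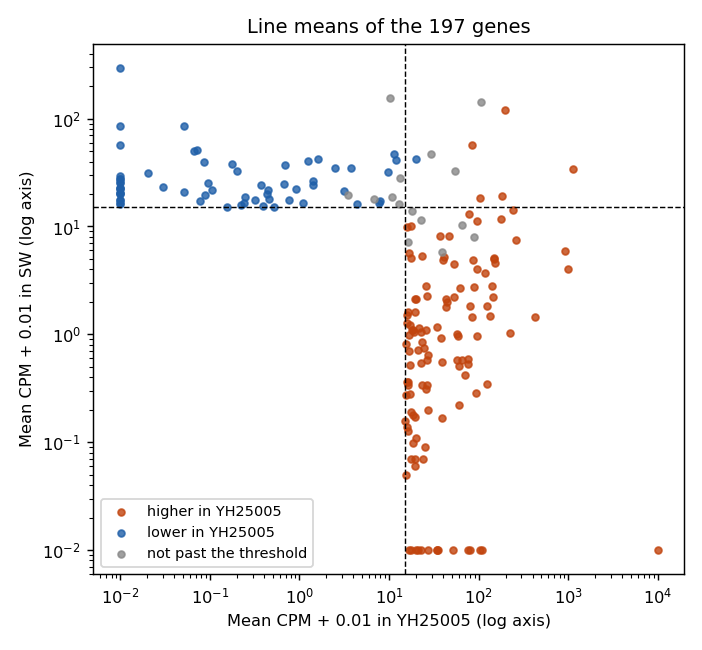
Mean CPM (plus 0.01) of the 197 genes in YH25005 (x axis) and in SW (y axis), both on log axes, with dashed lines at 15 CPM and colour by the result of the edgeR test. The upper right corner holds the 9 genes at 15 CPM in both lines, and the points on the lower and left borders are genes with 0 counts in 1 line.

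In the comparison of YH25005 with SW, 121 of the 197 genes were higher and 61 lower in YH25005, and 15 did not pass (edgeR quasi-likelihood test, 6 libraries, Benjamini-Hochberg adjustment over 46839 genes, threshold 0.05). Across the whole list 34.7% of genes were called, 16.8% higher and 17.8% lower. Among the genes of both lists at 15 CPM in either line, 40.4% were called, 19.0% higher and 21.4% lower. The threshold was passed in a single line by 188 of the 197, so a difference was largely built into the choice and the count is a description. The direction was that of the line which passed the threshold, 116 higher of 122 and 60 lower of 66. The median log2 difference was 3.88 over the 197 genes and -0.04 over all genes. With library totals alone as scaling the median of all genes moved by -0.27, and 12.1% of all genes were higher and 25.0% lower, while the 197 gave 117 higher and 63 lower.

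**Figure D2:**
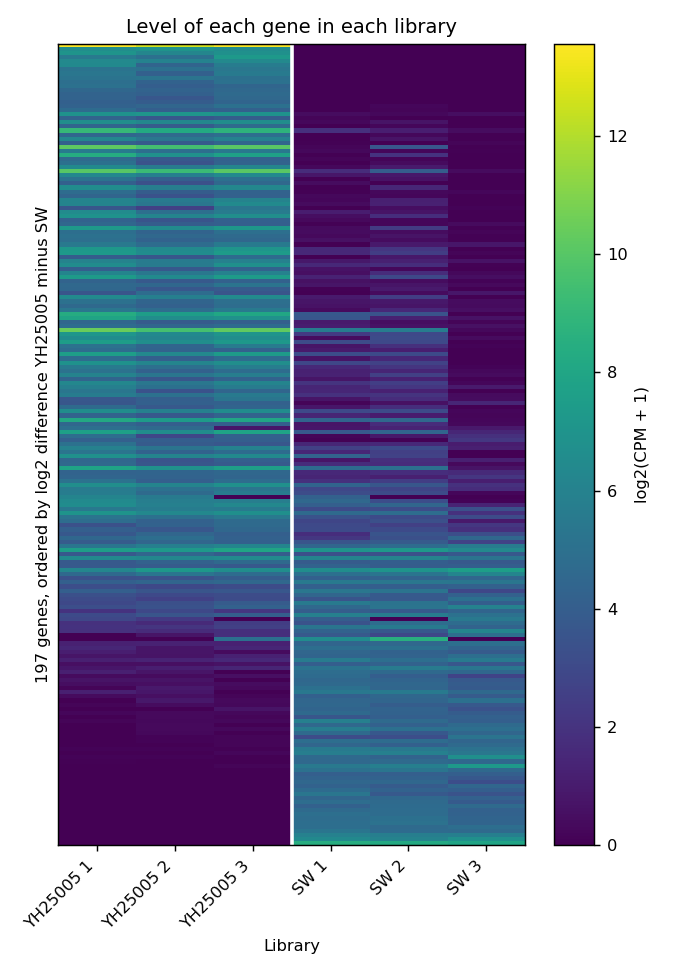
Level of each of the 197 genes (rows, ordered by the log2 difference YH25005 minus SW) in the 3 YH25005 and 3 SW libraries (columns), as log2(CPM + 1). The rows split into 121 genes higher and 61 lower in YH25005 with few rows bright in both lines, and SW 3 is darker than SW 1 and SW 2 in the upper part.

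The 197 genes held 2.43%, 1.40% and 2.28% of the counts in YH25005 libraries 1 to 3, against 0.308%, 0.326% and 0.265% in SW libraries 1 to 3. The means were 2.04% ± 0.558 in YH25005 and 0.300% ± 0.0314 in SW (SD, n = 3 each), and the ranges did not overlap. These shares sum the levels by which the genes were chosen, so their difference is a description and was not tested. A single gene, BnaA01g16230D, supplied 0.992% ± 0.311 of the YH25005 counts, and without it the YH25005 share was 1.04% ± 0.248. A mean of 100 CPM or more was reached by 24 genes in YH25005 and by 4 in SW.

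BnaA01g16230D, on chromosome A1 by its ID, had 12025, 6350.1 and 11382 CPM in the YH25005 libraries and 0 counts in each SW library. Its 1013980 counts in YH25005 make it at least 325268-fold higher there than a floor of 3 counts over the 3 SW libraries. By counts it ranked 8, 10 and 8 among all genes of the 3 YH25005 libraries. Per length, its 23403, 13184 and 22143 FPKM ranked 3, 4 and 4. It was thus among the most abundant messages of YH25005 seeds and had no counted read in SW.

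A few further genes with high read counts in YH25005 had low and uneven counts in SW. BnaA08g31350D had 1389, 755 and 1207 CPM in YH25005 and 49.99, 52.8 and 0.241 CPM in SW (log2 difference 5.32, SE 1.48, edgeR adjusted p = 0.0287). BnaA08g13680D had 1177, 732 and 1072 CPM in YH25005 and 0.118, 11.9 and 0 CPM in SW (log2 difference 8.21, SE 2.02, edgeR adjusted p = 0.0182). BnaA03g48460D had 1049.7, 604 and 1105 CPM in YH25005 and 2.30, 15.1 and 0.301 CPM in SW (log2 difference 7.55, SE 1.41, edgeR adjusted p = 0.00592). In each of them all YH25005 libraries lay above all SW libraries, SW 3 was the lowest of the SW libraries and YH25005 2 was the lowest of its line. SW replicate 2 set the size for a pair of them, since without it the log2 difference was 14.26 for BnaA08g13680D and 9.80 for BnaA03g48460D. The call of BnaA08g31350D did not hold without SW replicate 1 (adjusted p = 0.0698), SW replicate 2 (0.0616), YH25005 replicate 1 (0.0668) or YH25005 replicate 3 (0.0709). BnaA08g13680D and BnaA03g48460D had SW means under 15 CPM, so their direction was set by the choice and their p-values are a description.

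The same shape recurred at lower levels. BnaAnng10080D, an A subgenome ID without a chromosome, had 538, 300.4 and 427 CPM in YH25005 and 2.69, 1.20 and 0.391 CPM in SW. BnaC07g17990D had 337, 184 and 269 CPM in YH25005 and 12.7, 9.89 and 0 CPM in SW (log2 difference 5.43, SE 1.40, edgeR adjusted p = 0.0217). Its call did not hold without YH25005 replicate 1 (adjusted p = 0.0545), YH25005 replicate 3 (0.0587) or SW replicate 2 (0.0563). The direction of both genes was set by the choice, since their SW means were under 15 CPM, and the p-values are a description.

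YH25005 2 and SW 3 were each the lowest of their line in most of the genes higher in YH25005. YH25005 2 was the lowest of its line in 104 of the 121 (86.0%), against 42.7% of 3140 genes of both lists that were likewise higher at 15 CPM, and 20.3% of all genes. Its level was 63.2% of the mean of YH25005 1 and 3 in the median of the 121 genes, where the median of all genes was 114%. SW 3 was the lowest of its line in 77 of the 121 (63.6%), against 58.8% and 40.5% in the same sets. By this count SW 3 was thus near the share of the 3140 genes, unlike YH25005 2. Summed over the 121 genes without BnaA01g16230D, the libraries gave 11702, 7009.7 and 10811 CPM in YH25005 and 563, 679 and 204 CPM in SW. What sets these libraries apart was not tested. Without SW replicate 3 the test called 123 genes higher and 60 lower, and without YH25005 replicate 2 it called 113 and 57.

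BnaA01g16230D was 1 of 15 genes with 0 counts in all SW libraries, whose lower bounds ran from 554-fold to 325268-fold. BnaA10g27260D had 102, 125 and 96.7 CPM in YH25005 and 0 counts in SW, at least 3649.9-fold higher. BnaC04g13900D had 83.4, 62.7 and 81.6 CPM, at least 2517-fold higher, and BnaA04g25160D had 126, 72.9 and 112 CPM, at least 3414-fold higher, each with 0 counts in SW. Replicates were less even for BnaA04g06650D, at 86.8, 19.7 and 49.9 CPM in YH25005, and for Brassica_napus_newGene_2309, a gene the authors added to the annotation, at 44.9, 31.4 and 163 CPM. Both had 0 counts in SW, with bounds of 1685-fold and 2569.8-fold.

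Genes lower in YH25005 than in SW were the 61 of the opposite kind, 18 of the 197 with 0 counts in all YH25005 libraries. BnaCnng51680D had 0 counts in YH25005 and 343, 297 and 244 CPM in SW, at least 10256-fold lower in YH25005. BnaA08g20470D had 0 counts in YH25005 and 84.2, 65.6 and 109 CPM in SW, at least 2999-fold lower. The added gene Brassica_napus_newGene_13537 had 0 counts in YH25005 and an even 60.2, 53.9 and 57.6 CPM in SW, at least 1992-fold lower. BnaC07g04320D (38.2, 26.0 and 24.8 CPM in SW), BnaC05g13500D (29.2, 24.97 and 28.6 CPM) and BnaC09g00770D (29.0, 33.8 and 19.4 CPM) also had 0 counts in YH25005, with bounds of 1034-fold, 959-fold and 955-fold. Per length the genes of the 2 directions differed in level too, with a median of 29.6 FPKM in YH25005 for the 121 and 15.5 FPKM in SW for the 61, which was not tested. SW 3, low in many of the genes above, was also the lowest SW library in 37 of the 61 and the highest in 16. Over all genes it was the lowest in 18976 of 46839 (40.5%). The 61 genes summed to 81.4, 92.7 and 117 CPM in YH25005 and to 2089.8, 1882 and 1968 CPM in SW.

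The 9 genes at 15 CPM or more in both YH25005 and SW were the ones shared at that level by the pair of lines. Since both line means passed the threshold, their difference was not set by the choice. They split into 5 higher and 1 lower in YH25005 and 3 that did not pass. Across the whole list 16.8% of genes were higher and 17.8% lower. The shares among genes of both lists at 15 CPM in both lines were not worked out, so the split of 9 genes is a description.

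A pair of them lay close together on C2. BnaC02g39110D had 192, 159 and 238 CPM in YH25005 and 129, 149.9 and 83.4 CPM in SW (log2 difference 0.99, SE 0.31, edgeR adjusted p = 0.0436). BnaC02g39140D had 90.0, 76.2 and 88.0 CPM in YH25005 and 69.1, 64.9 and 36.1 CPM in SW (log2 difference 0.87, SE 0.28, edgeR adjusted p = 0.0486). YH25005 was above SW without overlap in both, but neither call was firm. With library totals alone as scaling the adjusted p was 0.0909 for BnaC02g39110D and 0.13 for BnaC02g39140D, and leaving out single libraries raised it to as much as 0.143 and 0.136. The ID between them, BnaC02g39130D, was listed for the same pair of lines at 1.13 CPM in YH25005 and 0.914 CPM in SW. The flanking BnaC02g39080D was in both lists, at 14.3 CPM in YH25005, 11.3 CPM in SW, 4.09 CPM in A28 and 2.25 CPM in R8Q10. On the other side BnaC02g39190D stood at 3.20 CPM in YH25005, 3.04 CPM in SW, 0.997 CPM in A28 and 0.976 CPM in R8Q10. The next ID outward on each side did not have both A28 and R8Q10 under YH25005 and SW. BnaC02g39070D had 10.3 CPM in YH25005, 11.7 CPM in SW, 8.91 CPM in A28 and 10.7 CPM in R8Q10. BnaC02g39240D had 2.81, 5.83, 5.70 and 6.39 CPM in the same order. These neighbours were picked for their position after the values were seen.

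BnaA10g22470D had 73.2, 143 and 99.0 CPM in YH25005 and 100.5, 129.7 and 195 CPM in SW, with overlap (log2 difference -0.18, SE 0.32, edgeR adjusted p = 0.701). BnaAnng37180D had 23.5, 38.0 and 26.9 CPM in YH25005 and 31.5, 37.2 and 71.0 CPM in SW, also with overlap (log2 difference -0.40, SE 0.33, edgeR adjusted p = 0.377). The sign of both turned without SW replicate 3 (0.12 and 0.04), so no direction is given for either. BnaC01g23420D had 37.3, 57.2 and 70.6 CPM in YH25005 and 21.2, 26.7 and 49.6 CPM in SW, again with overlap, and did not pass (edgeR adjusted p = 0.0683).

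BnaA02g06340D was the 1 shared gene lower in YH25005, at 17.0, 20.8 and 22.9 CPM there and 47.1, 40.98 and 38.6 CPM in SW (log2 difference -0.78, SE 0.18, edgeR adjusted p = 0.0137). Its call did not hold without YH25005 replicate 1 (adjusted p = 0.055). The remaining shared genes were higher in YH25005 and had the low SW 3 value described above. BnaC02g40420D had 235, 114 and 197 CPM in YH25005 and 25.8, 31.1 and 0.632 CPM in SW. Brassica_napus_newGene_1449 had 129, 78.4 and 105 CPM in YH25005 and 25.1, 27.5 and 2.77 CPM in SW. BnaA08g31350D, given above, completed the 9.

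**Figure D3:**
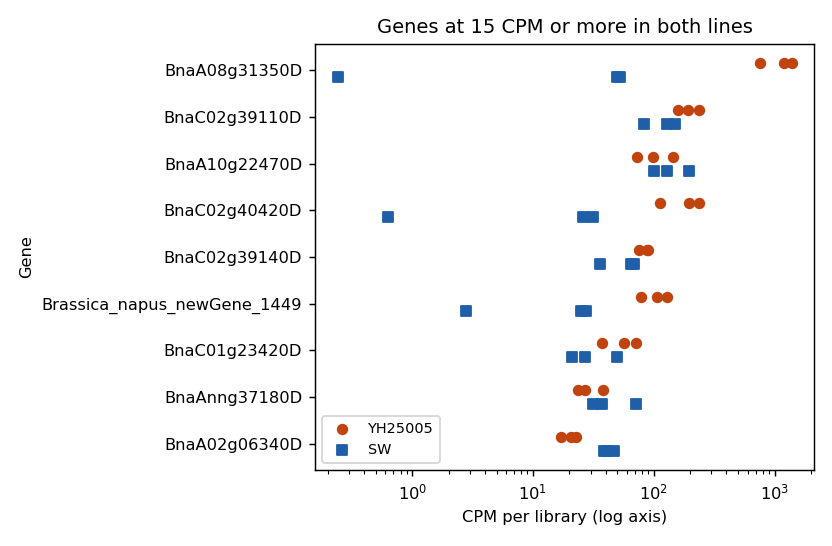
CPM per library (log axis) of the 9 genes at 15 CPM or more in both lines, with YH25005 as circles above SW as squares. In BnaA10g22470D, BnaAnng37180D and BnaC01g23420D the lines overlap. In BnaA08g31350D and BnaC02g40420D the SW 3 value lies at 0.241 and 0.632 CPM, far left of SW 1 and SW 2.

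A few genes were on in 1 library and off in another of the same line. BnaA02g01930D had 0, 0.0515 and 30.7 CPM in YH25005 and 96.8, 373 and 0 CPM in SW. Brassica_napus_newGene_9965 had 69.2, 47.9 and 0.0307 CPM in YH25005 and 17.4, 0 and 0 CPM in SW. BnaC06g37910D had 6.34, 3.96 and 0 CPM in YH25005 and 14.9, 0 and 43.8 CPM in SW. None of these differences passed (edgeR adjusted p = 0.314, 0.315 and 0.353). Counting genes at 15 CPM in a library and at most 3 counts in another of the line, there were 2 of 135 in YH25005 (1.48%) and 5 of 85 in SW (5.88%). Among genes of both lists the shares were 0.0636% in YH25005 and 0.154% in SW. Those genes had also passed the filter in A28 and R8Q10, so the sets are not alike, and the shares were not tested. BnaA02g01930D and Brassica_napus_newGene_9965 are counted in both lines. The other SW genes of this kind were BnaA09g08470D (18.6, 5.49 and 0 CPM in SW) and BnaA09g52790D (22.7, 8.27 and 0.0903 CPM), which had 67.7 to 112 and 54.4 to 87.2 CPM in YH25005.

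By ID, 80 of the 197 genes were in the A subgenome, 92 in the C subgenome and 25 were added by the authors. Added genes made up 12.7%, against 5.49% of the YH25005 and SW list. Their share among the 3131 IDs listed for this pair of lines alone was not worked out. For these 25, absence from the A28 and R8Q10 list assumes that both lists number added genes alike, which cannot be checked for an ID in 1 list. Of 2060 added numbers in both lists with at least 50 counts in a library of each, 88.8% had an apparent length (from the ratio of count to FPKM) within 10% in the 2 lists, against 91.6% of 41403 annotated IDs. The 121 genes higher in YH25005 had 46.3% A and 39.7% C IDs, and the 61 lower ones 26.2% A and 63.9% C IDs. The whole list had 45.8% and 48.4%. The C1 and C9 stretches described below supplied 15 of the 39 C IDs among the lower genes, and without them 24 of 46 were C IDs (52.2%) and 16 were A IDs (34.8%), an alternative chosen after seeing the data. A chromosome is named in 152 of the IDs, with 3 to 14 genes on each. Relative to the listed IDs of a chromosome the shares were highest on A10 (14 genes, 0.838%), C1 (13 genes, 0.717%) and C2 (10 genes, 0.578%) and lowest on A7 (3 genes, 0.155%). The median apparent length, from the ratio of count to FPKM, was 0.878 of that of the list.

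The genes were partly grouped along chromosomes. Of the 152, 36 (23.7%) had a neighbouring ID that was also listed for YH25005 and SW alone. Of those lower in YH25005, 17 of 51 did (33.3%), and of those higher, 18 of 90. Many of the 17 belong to the C1 and C9 stretches described below, which hold 15 of the genes. The shares without these stretches were not worked out. The share was 15.8% for the other IDs of the same listing and 10.3% for IDs in both lists. Neighbours are in the order of ID numbers, no test was run on these shares, and gene order in these lines may differ.

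Neighbours within 5 IDs on each side had not been used to choose the genes. Around the genes lower in YH25005, 110 of 402 such neighbours were lower too (27.4%) and 46 higher (11.4%), where the background was 17.8% and 16.8%. Around the genes higher in YH25005, 161 of 842 neighbours were higher (19.1%) and 141 lower (16.7%), near the background. Without the genes of the C1 and C9 stretches described next, 16.3% of the neighbours of lower genes were lower.

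On C1, 8 of the genes fell between BnaC01g39840D and BnaC01g40610D, all lower in YH25005. BnaC01g39840D had 1.27, 0.746 and 0 CPM in YH25005 and 42.2, 46.4 and 23.7 CPM in SW. BnaC01g40610D had 0, 0 and 0.123 CPM in YH25005 and 42.9, 56.9 and 156 CPM in SW. BnaC01g40120D and BnaC01g40320D had 0 counts in YH25005, at least 573-fold and 718-fold lower there. The stretch was searched for after the values had been seen, as 4 or more of the genes with at most 100 gene numbers between them. The search gave 4 stretches, on C1, C9, A10 and C2. The C2 stretch, from BnaC02g38520D to BnaC02g40420D and around the C2 pair above, had no common direction, with 3 of its 5 genes higher and 2 lower in YH25005. Of its other 72 IDs 12 were higher and 10 lower, with a median log2 difference of -0.01.

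The other 28 IDs of this C1 stretch were lower in YH25005 in 26 cases and higher in 2, with a median log2 difference of -4.10. All 9 of them listed for YH25005 and SW alone were lower. An ID near 0 in YH25005 can be listed only through SW, so part of these counts was set by the filter. Of the 28, 19 were in both lists and can be compared over all 4 lines, and 17 were lower in YH25005. Their median level was 2.81 CPM in YH25005 and 18.5 CPM in SW, with A28 at 2.82 CPM and R8Q10 at 2.55 CPM. SW was the highest line in 17 of the 19. BnaC01g40480D, for example, had 0 counts in YH25005, 27.0, 32.2 and 28.04 CPM in SW, 2.31, 3.55 and 2.18 CPM in A28 and 0 counts in R8Q10. BnaC01g40360D had 1.27, 1.52 and 1.54 CPM in YH25005, 45.9, 70.2 and 95.7 CPM in SW, 1.10, 0.763 and 0.628 CPM in A28 and 3.18, 2.58 and 1.74 CPM in R8Q10. Outside it the difference was small, with a median log2 value of -0.10 over 19 IDs before the stretch and 0.15 over 20 IDs after it. Of these 39 flanking IDs 8 were lower and 3 higher, and the 3 lower ones after the stretch followed it directly.

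On C9, 7 of the genes fell between BnaC09g00430D and BnaC09g01110D, again all lower in YH25005. BnaC09g00580D had 0, 0 and 0.184 CPM in YH25005 and 53.6, 59.2 and 39.8 CPM in SW. BnaC09g00470D, close to the 15 CPM threshold, had 0.455, 0.489 and 0.583 CPM in YH25005 and 15.3, 18.2 and 11.6 CPM in SW. Of the other 20 IDs 19 were lower in YH25005, with a median log2 difference of -6.18. The 8 listed for YH25005 and SW alone were all lower, which the filter set in part, as on C1. Of the 12 in both lists, 11 were lower. The 12 IDs in both lists had a median of 1.59 CPM in YH25005 and 14.1 CPM in SW, with A28 at 2.73 CPM and R8Q10 at 1.46 CPM, and SW was the highest line in all 12. The flanks did not differ from the stretch in direction, since 20 of 20 IDs before and 17 of 18 after were lower in YH25005 as well.

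**Figure D4:**
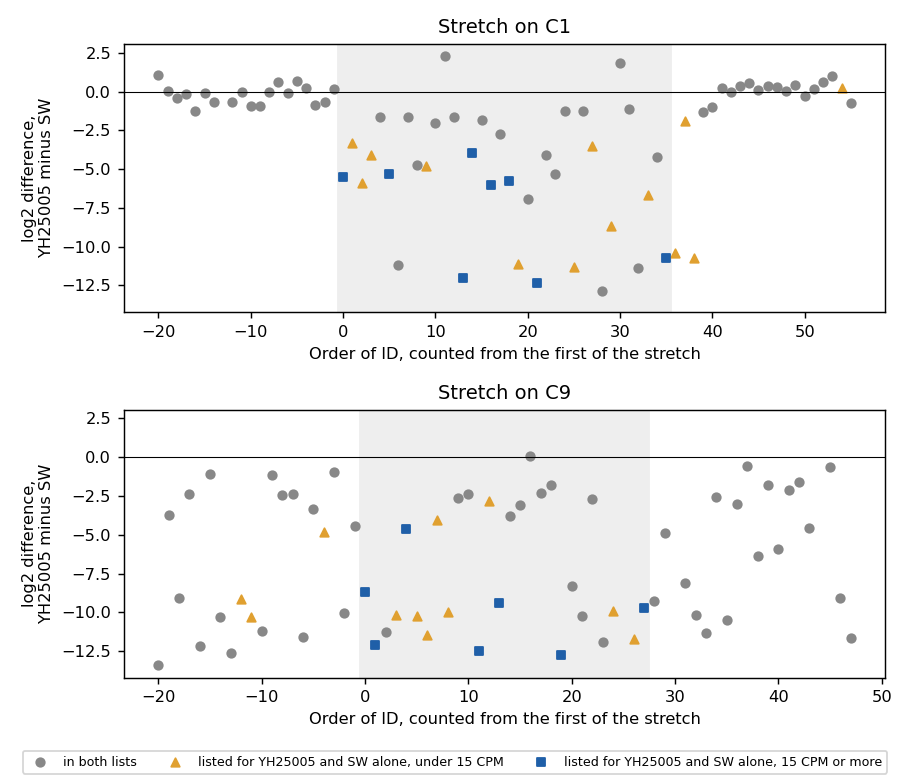
Log2 difference YH25005 minus SW (y axis) of each ID in the C1 and C9 stretches (grey area) and of up to 20 flanking IDs on each side, by order of ID (x axis). On C1 most flanking values lie near 0, apart from 3 low IDs directly after the stretch, and on C9 the flanks stay below 0.

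**Figure D5:**
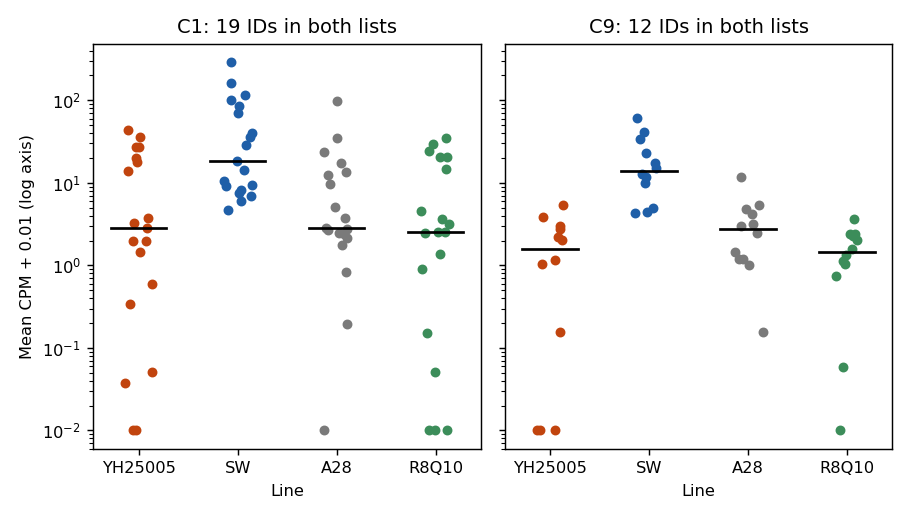
Mean CPM (plus 0.01, log axis) in the 4 lines of the 19 C1 and 12 C9 IDs of the stretches that are in both lists, each point 1 ID and each bar the median. SW stands above the other 3 lines, with medians of 18.5 and 14.1 CPM.

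On A10, 8 of the 14 genes lay where the surrounding IDs were low in R8Q10. Surroundings were the 10 nearest IDs of both lists, called low in a line when their median log2 ratio to the other 3 lines was -1 or less. A gene could be counted under several lines. In all, 20 of the 152 genes (13.2%) had surroundings low in R8Q10, against 2.25% of IDs in both lists. Of the 20, 8 were on A10, 6 on C9 and 4 on C1. The C9 and C1 genes among them were all counted as low in YH25005 too. They lay in the stretches above, where SW had the highest median, so their count is not particular to R8Q10. Surroundings were low in YH25005 for 15 genes (9.87% against 2.65%), in A28 for 6 (3.95% against 1.01%) and in SW for 1 (0.658% against 1.38%). Of the 15 for YH25005, 7 were on C9 and 5 on C1, all in the stretches above, with 2 on A10 and 1 on A3. The higher share for YH25005 thus came mainly from those stretches. These shares were not tested, and neighbouring genes share their surroundings.

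The 4 A10 genes from BnaA10g17050D to BnaA10g19110D were higher in YH25005, a direction set by the choice, since all 4 were under 15 CPM in SW. Of the 119 other IDs between them 11 were higher and 29 lower. The 12 of these listed for YH25005 and SW alone gave 3 higher and 9 that did not pass, and the 107 in both lists gave 8 higher and 29 lower. Those 107 had a median of 8.25 CPM in YH25005 and 13.7 CPM in SW, with A28 at 12.3 CPM and R8Q10 at 0. BnaA10g17860D had 104, 68.3 and 112 CPM in YH25005 and 19.5, 11.3 and 2.80 CPM in SW. BnaA10g21600D lay in the same low surroundings and ran the other way, at 7.40, 10.8 and 15.6 CPM in YH25005 and 57.8, 50.8 and 32.1 CPM in SW (log2 difference -1.77, SE 0.34, edgeR adjusted p = 0.00657). Its direction was likewise set by the choice, since its YH25005 mean was under 15 CPM.

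The longest unbroken run of IDs listed for YH25005 and SW alone that held any of the genes was also on A10, with 8 IDs from BnaA10g27220D to BnaA10g27330D. All 8 were higher in YH25005 (edgeR adjusted p of 0.00588 or less), and the 6 that missed 15 CPM had means of 1.96 to 13.6 CPM in YH25005 and 0 to 0.847 CPM in SW. That direction was largely set by the listing and the threshold, since IDs so low in SW are listed mainly through YH25005. The p-values are therefore a description. BnaA10g27330D, the last of the run, had 77.8, 40.9 and 62.7 CPM in YH25005 and 0, 0.630 and 0 CPM in SW. BnaA10g27270D, just under the threshold at 13.6 CPM in YH25005, had 0.847 CPM in SW. The 10 nearest IDs in both lists around this run were low in YH25005, the line in which the run was high, with a median log2 ratio of -1.03 to the other 3 lines.

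At the 15 CPM threshold, the genes just inside were BnaC03g73550D (15.0 CPM in YH25005, 0.148 CPM in SW), BnaCnng18300D (0.146 and 15.1 CPM) and BnaC09g00470D (0.509 and 15.1 CPM). Just outside were Brassica_napus_newGene_4435 (14.9 CPM in YH25005, 9.37 CPM in SW), BnaC04g27680D (3.96 and 14.8 CPM) and BnaA02g21600D (14.7 and 1.16 CPM). A lower threshold of 10 CPM would take 320 genes and a higher one of 30 CPM would take 88.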

How the data were processed

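Immature seeds of 4 lines were sequenced as poly-A RNA with read pairs, per the labels' protocols, by a kit whose description does not mention strand, so overlapping genes cannot be told apart. Of tools, HISAT2, bcl2fastq and DESeq2 are listed in the submitters' processing notes, without versions. Genome build, annotation and counter: not given in the sources used here. Per the file headers, each library has a count and an FPKM per gene. The deposited counts were tested as counts. The deposited FPKM values served for levels between genes, apparent length and 1 alternative threshold. The genes and lists were chosen with earlier results of these data known.

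The 46839 genes of the YH25005 and SW list were fitted by quasi-likelihood in edgeR 4.0.16 under R 4.3.3 (TMM scaling, filterByExpr, which removed 0 genes, 1 coefficient per line, 6 libraries). SE is the log2 difference over the square root of F. Printed CPM are unscaled. TMM factors were 0.861 to 0.994 in YH25005 and 1.06 to 1.14 in SW, so on scaled CPM bounds are larger for genes higher in YH25005 and smaller for genes lower. Genes were named by rank in level, difference, evenness and spread, by the threshold and by the longest run. Genes of the stretches, their neighbours, BnaA10g21600D, BnaC06g37910D, BnaA09g08470D, BnaA09g52790D, BnaC01g23420D, BnaC02g40420D and Brassica_napus_newGene_1449 were added after their values were seen. Levels across the pairs of lines rest on separately filtered lists. Alternatives were other scalings, DESeq2 1.42.0, other filters, a replicate block and single libraries left out. The labels do not say what a replicate number marks, so same-numbered replicates of the 2 lines were not paired in the main fit.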

Additional observations from a re-analysis of the deposited data

How the results depend on the processing

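Counts of the 197 genes called stayed within 1.5 times of 182 in every setting run. They were 182 with DESeq2 size factors, 180 with library totals, upper quartile scaling also 180, 184 with DESeq2 and 182 with either filter setting, which repeat the main fit. With single libraries left out, 163 to 183 were called, 105 to 123 higher and 57 to 61 lower in YH25005. The replicate block gave 169 (109 higher, 60 lower). Deviations of same-numbered replicates correlated at 0.0578, -0.255 and -0.0282. These values gave no sign of pairing by number, but they cannot exclude a shared block. Of 364 combinations of 28 named genes and settings, 338 kept direction and side of the threshold, 24 lost the call and 2 turned sign without SW replicate 3, BnaA10g22470D (0.12; with single libraries left out -0.39 to 0.12) and BnaAnng37180D (0.037; -0.63 to 0.037). The cause was not tested. The number of genes was 320 at 10 CPM and 88 at 30 CPM, by construction. The YH25005 share of counts fell to 1.04% without BnaA01g16230D, and SW has 0 counts of it. Neighbours of genes lower in YH25005 were lower in 27.4% of cases, and in 16.3% without the C1 and C9 stretches, an alternative chosen after seeing the data. At this depth a count of 0 in a YH25005 or SW library allows up to 0.0772 to 0.0921 CPM.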
